A study of Mus musculus with 24 samples.

Results

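The comparison described here asked in which genes the loss of Thumpd1 changed the RNA level of mouse testes and liver by different amounts, or in opposite directions. For each gene, the log2 change from wild type (WT) to knockout (KO) in liver was subtracted from the same change in testes, and genes qualified when they reached a CPM (counts scaled to a common library size) of 1 in at least 4 of the 8 libraries of each tissue. This kept 11611 of 55450 genes and used 16 of the 24 libraries of the series. The 4 groups held 4 libraries each: WT liver and WT testes (libraries 1 to 4), and Thumpd1 KO liver and KO testes (libraries 5 to 8). The mice were 6 to 12 weeks old and bred on a C57/BL6 background, and the KO mice lacked Thumpd1 throughout the body after CRISPR-Cas9 cuts aimed at exons 1 and 4 in C57BL/6N eggs, so that every cell type of both organs carried the deletion. WT animals were age-matched littermates. The study calls such libraries biological replicates, while the labels name no animal behind each, and the p-values measure the spread between these libraries.

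Thumpd1 encodes a tRNA-binding adaptor that lets the acetyltransferase Nat10 place N4-acetylcytidine in the D-arm of serine and leucine tRNAs. Loss of a tRNA modification can slow decoding, and slowed ribosomes can signal through eIF2α kinases and the transcription factor Atf4, whose targets include amino acid transporters, aminoacyl-tRNA synthetases and asparagine synthetase. Liver is made largely of hepatocytes, which set the supply of lipids, glucose and plasma proteins and follow feeding and the circadian clock. Testes hold germ cells at successive stages, nursed by Sertoli cells, with hormone-making Leydig cells between the tubules. A gene had to be expressed in both organs to be compared.

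Total expected counts ran from 26992675 to 32251737 in WT liver, 18145725 to 37889615 in KO liver, 29913402 to 32220670 in WT testes and 27273231 to 36621604 in KO testes. Abundant noncoding RNAs such as 7SL and 7SK took 17.5% to 31.0% of the counts in liver and 4.56% to 5.83% in testes. Tissue labels matched defining markers in all 16 libraries, with the sperm protamine Prm1 at 0 counts in liver and at 1615 to 3039 CPM in testes, and albumin (Alb) at no more than 11 counts in testes. Mice of either sex were used, and the Y-linked gene Ddx3y stood at 38.2 ± 3.70 CPM (SD, n = 4) in WT liver and 47.8 ± 4.72 CPM in KO liver, so both liver groups carried a Y chromosome. Some libraries with neighbouring numbers in a group (1 and 2, 3 and 4, 5 and 6, 7 and 8) deviated together. Over 11611 genes, the deviations from the group mean correlated with a median r of -0.00701 in the 8 neighbouring pairs and -0.545 in the 16 other pairs, and deviations from a shared mean pull such correlations downwards. In 6 of the 8 neighbouring pairs r was above that of every other pair of the group, the exceptions being WT testes 1 and 2 (r = -0.475, the lowest of its group) and WT liver 3 and 4 (r = -0.297). What the numbers stand for is not stated. CPM values below are scaled by TMM (trimmed mean of M-values) factors and relative to the counts of the genes kept.

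Deletion of the target was checked in every library. Thumpd1 (ENSMUSG00000030942.8, mm10 chromosome 7, 119715093 to 119720798, minus strand) had 314, 307, 325 and 248 counts in the WT liver libraries and 0, 1, 4 and 2 in the KO liver libraries. In testes the WT libraries had 781, 846, 740 and 808 counts and the KO libraries 24, 31, 41 and 23. Each KO library was thus far below each WT library of its tissue, but testes kept 3.44% of the WT CPM and liver 0.577%. The log2 change was -4.86 ± 0.14 (SE) in testes and -7.17 ± 0.33 in liver, and the difference of 2.31 ± 0.33 had an adjusted p of 0.000991 in limma-voom with Benjamini-Hochberg adjustment, the test behind every adjusted p below unless another is named. With 0 to 4 counts per KO liver library, the liver value and so this difference rest on few reads. Nat10, the acetyltransferase itself, lay between 39.3 and 47.6 CPM in all liver libraries and between 58.6 and 63.7 CPM in all testes libraries, with WT and KO overlapping in both tissues. Its difference was 0.05 ± 0.09 (adjusted p = 0.735). Of the 9 genes of tRNA acetylation and other THUMP-domain proteins that were measured, Thumpd1 was the 1 with a called difference (11.1%, against 9.85% over all genes).

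The knockout effect differed between testes and liver in 1144 genes (9.85% of those tested). The testes effect was the higher in 555 (4.78%) and the lower in 589 (5.07%). Most differences were small: the median absolute difference was 0.54 on the log2 scale among the called genes and 0.20 over all genes. Within testes alone, 2774 genes (23.9%) passed, 1106 higher (9.53%) and 1668 lower (14.4%) in KO, and within liver alone 671 (5.78%) passed, 271 higher (2.33%) and 400 lower (3.45%). Among the 1144, the knockout effect passed in testes but not in liver in 568 genes, in liver but not in testes in 248, in neither tissue alone in 271, in both with the same sign in 8, and in both with opposite signs in 49 (0.422% of the genes tested). Of the 178 genes called in both tissues, 49 moved in opposite directions. Across the 11611 genes, effects in testes and in liver correlated with r = 0.0788, a description over genes that share libraries and scaling.

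These counts leaned on single libraries. The 1144 calls became 532 without WT testes library 4, 582 without WT testes library 3, 622 without KO testes library 7 and 749 without WT liver library 1, and 1613 without KO testes library 5, which stayed within 1.5 times. Opposite genes numbered 16, 19 and 25 without WT liver library 1, 2 or 3, 22 and 32 without KO liver library 8 or 6, 21, 23 and 32 without WT testes library 3, 4 or 1, 29 without KO testes library 7 and 76 without KO testes library 5. Summing neighbouring libraries, tried once the data had been seen and leaving 2 samples in each group, called Srgap3, Dpy19l3, Chst2 and Gm22317 only, with 1479 genes at an unadjusted p under 0.05. That fit called 1 gene in testes, 13 in liver and 0 members of the gene lists below. In it 0 genes were called opposite by limma, with 82 opposite at an unadjusted p under 0.05 in all 3 fits. DESeq2 called 113 and edgeR's quasi-likelihood test 43 genes opposite on the unsummed libraries.

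**Figure D1:**
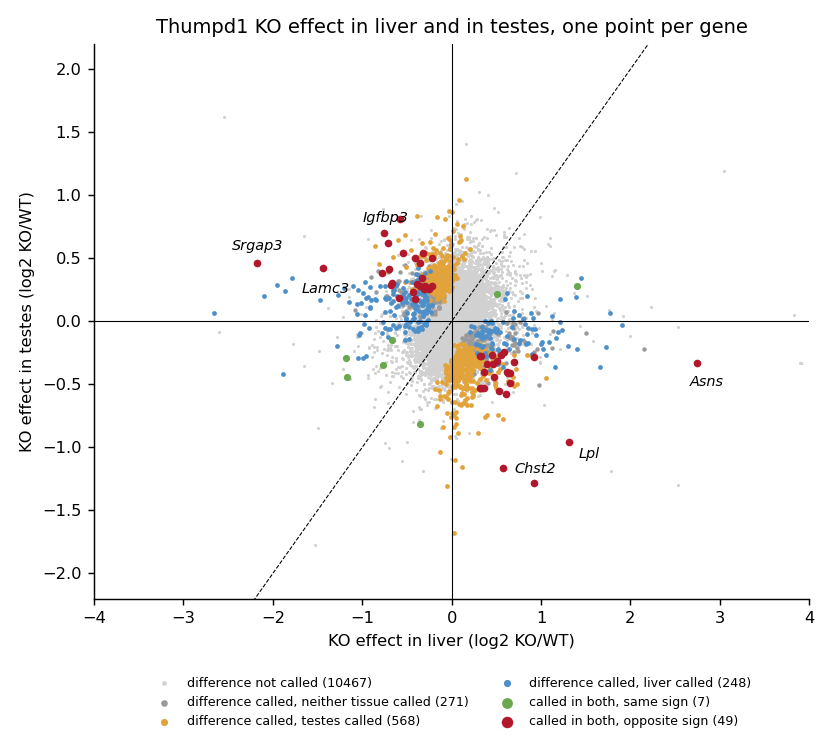
Knockout effect in liver (x axis, log2 KO/WT) against testes (y axis, log2 KO/WT), one point per gene, coloured by the calls; the dashed line marks equal effects, and 4 genes outside the axes and Thumpd1 are not drawn. The 49 red points, called in both tissues with opposite signs, lie at the upper left (24 genes) and lower right (25 genes), with Asns furthest to the right.

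Of the 49 genes with opposite effects, 24 rose in KO testes and fell in KO liver, and 25 did the reverse. The first set had a median log2 change of 0.37 in testes and -0.42 in liver, and the second -0.40 in testes and 0.55 in liver. In 39 of the 49, 20 and 19, all KO libraries lay on 1 side of all WT libraries in each tissue. This held for 4.71% of all genes tested, whatever the directions. Since the rule behind these sets asked for calls in both tissues, the medians and the separation describe them and test nothing. Exons of 19 of the 49 overlap another gene, against 38.4% of all genes tested. Cerebellum, which the comparison did not use, measured 41 of the 49, and the knockout effect there was called in 6, 4 with the sign of liver and 2 with the sign of testes (6.59% of all genes measured in cerebellum were called). Of the 41, 17 had the sign of liver.

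Asns, which encodes asparagine synthetase and is a classical target of Atf4, showed the largest difference of the 49. In liver it stood at 3.98, 2.79, 1.302 and 1.41 CPM in the WT libraries and at 23.1, 21.7, 10.7 and 12.4 CPM in the KO libraries. In testes it stood at 122.8, 124, 130.1 and 132 CPM in WT and 106, 113, 91.1 and 96.5 CPM in KO. Every KO liver library was above every WT liver library and every KO testes library below every WT testes library. The log2 change was 2.74 ± 0.42 in liver (adjusted p = 0.00492) and -0.33 ± 0.07 in testes (adjusted p = 0.00796), a difference of -3.09 ± 0.36 (adjusted p = 0.000148). The SE of the difference comes from a spread that both tissues share, and so can be below the SE from liver libraries alone. Atf4 itself differed by -0.03 ± 0.19 (adjusted p = 0.933), with KO libraries at 143, 131, 125 and 124 CPM in liver and 40.5, 39.03, 39.3 and 34.8 CPM in testes, overlapping the WT libraries in both. The sign of that Atf4 difference changed with the test and scaling.

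The RefSeq promoter of Asns holds a match to TGATGNAA, the letters of a CCAAT/enhancer-binding protein and Atf4 composite element, and is shown whole for that reason, with the match in capitals. It spans chr6:7693160-7693459 of GRCm38.p6, minus strand, from 250 bases before the annotated start to 50 after it, and the match begins 23 bases before the start.
Asns: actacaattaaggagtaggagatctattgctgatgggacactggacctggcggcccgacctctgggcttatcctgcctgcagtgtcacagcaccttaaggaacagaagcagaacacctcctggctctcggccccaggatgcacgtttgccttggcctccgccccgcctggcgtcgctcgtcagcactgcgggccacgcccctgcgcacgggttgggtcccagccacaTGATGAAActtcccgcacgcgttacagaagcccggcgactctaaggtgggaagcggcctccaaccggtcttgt
Searched on both strands, the same letters occur in 3.97% of 32851 RefSeq promoters of this length.

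Lpl encodes lipoprotein lipase, which frees fatty acids from circulating triglycerides. Its level in liver was 25.6, 25.1, 23.5 and 23.03 CPM in WT and 58.1, 73, 56.5 and 58.5 CPM in KO, a clear separation. In testes it was 11.8, 11.9, 9.504 and 11.5 CPM in WT and 3.96, 4.25, 4.604 and 14.4 CPM in KO, so 3 KO libraries lay below all WT libraries and library 8 lay above them. The change was 1.32 ± 0.09 in liver and -0.95 ± 0.30 in testes, and the difference -2.27 ± 0.32 (adjusted p = 0.00079).

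Chst2, a sulfotransferase that modifies N-acetylglucosamine on glycoproteins, separated in both tissues. It stood at 5.87, 5.26, 6.3 and 5.72 CPM in WT liver against 8.09, 9.28, 8.796 and 8.42 CPM in KO liver, and at 3.996, 4.73, 5.304 and 4.502 CPM in WT testes against 1.95, 2.15, 1.69 and 2.61 CPM in KO testes. The changes were 0.58 ± 0.12 and -1.16 ± 0.15, and the difference -1.74 ± 0.19 (adjusted p = 8.66e-05). Fam187b, a membrane protein gene with far higher CPM in testes than in liver, fell from 206, 202, 209 and 218 CPM to 161, 157, 116 and 130.3 CPM in testes. Its liver level rose from 4.66, 5.47, 4.17 and 4.65 CPM to 7.396, 8.05, 6.78 and 7.03 CPM, and the difference was -1.19 ± 0.21 (adjusted p = 0.00274).

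Other genes lower in KO testes and higher in KO liver covered several roles. Mlkl, the executor of necroptosis, changed by -0.41 in testes and 0.66 in liver. Foxa3, a transcription factor of endoderm-derived organs, changed by -0.55 and 0.54, although its KO testes libraries (1.85, 2.52, 3.53 and 2.1 CPM) overlapped the WT range and 11 alternatives lost its difference. The RNA-binding proteins Rbm20 and Rbms1 changed by -0.49 and -0.40 in testes and by 0.65 and 0.36 in liver. Adam11, a catalytically inactive member of the ADAM family, changed by -0.44 and 0.47. Btg1, an antiproliferative gene, changed by -0.34 in testes, where WT libraries held 206 to 219 CPM and KO libraries 149 to 189 CPM, and by 0.39 in liver, where the ranges were 90.3 to 95.7 and 111 to 132 CPM. Further members of this set were Cd55, an inhibitor of complement, Sco2, an assembly factor of cytochrome c oxidase, and Clpx, the unfoldase of a mitochondrial protease, with changes of -0.53, -0.53 and -0.32 in testes and 0.34, 0.32 and 0.51 in liver. These last 3 were chosen after their values were seen, and exons of Cd55 and Sco2 overlap other genes.

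Igfbp3, which encodes the main carrier of insulin-like growth factors in plasma, went the other way. KO liver held 17.8, 15.7, 15.7 and 17 CPM against 24.2, 26.2, 33.6 and 28.4 CPM in WT, and KO testes 4.86, 4.55, 6.73 and 4.37 CPM against 3.19, 3.51, 3.21 and 2.74 CPM. Groups did not overlap in either tissue. The change was 0.70 ± 0.16 in testes (adjusted p = 0.00994) and -0.76 ± 0.11 in liver (adjusted p = 0.00428), a difference of 1.46 ± 0.21 (adjusted p = 0.000832).

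Srgap3, a GTPase-activating protein that acts on Rac1, had the largest difference of the 24 genes that rose in testes. Its KO liver libraries stood at 3.92, 2.56, 4.21 and 3.65 CPM and the WT at 17.2, 14.96, 17.6 and 16.97 CPM, while in testes KO stood at 73.9, 74.4, 95.2 and 104 CPM and WT at 66.6, 64.3, 57.6 and 60.4 CPM. The changes were -2.18 ± 0.15 and 0.47 ± 0.11, and the difference 2.66 ± 0.23 (adjusted p = 4.87e-06). In testes, KO libraries 7 and 8 were above 5 and 6. Exons of Srgap3 overlap Gm44081 on the other strand.

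Nt5e, the cell-surface enzyme that turns AMP into adenosine, fell from 20.6, 18.3, 21.5 and 17.8 CPM to 11.2, 7.01, 13.2 and 13.3 CPM in liver and rose from 18.9, 18.04, 16.4 and 15.8 CPM to 21.9, 21.9, 25.3 and 21.1 CPM in testes (difference 1.17 ± 0.18, adjusted p = 0.0013). P2ry2, a receptor for extracellular ATP and UTP, changed by 0.62 in testes and -0.71 in liver. Lrg1, a leucine-rich glycoprotein secreted by hepatocytes in acute inflammation, changed by 0.54 and -0.54, from low testes levels of 3.29 to 4.83 CPM in WT. Trim7, a ubiquitin ligase, changed by 0.50 and -0.41. Matrix genes were among this set as well: elastin (Eln) changed by 0.41 and -0.70, the laminin chain Lamc3 by 0.42 and -1.43 with overlapping testes libraries, and the collagen chain Col1a2 by 0.30 and -0.67. Slc40a1, the iron exporter ferroportin, was a further member, with 0.46 in testes and -0.36 in liver, and was picked after its values were seen. Its testes libraries overlapped. Exons of Eln, Lamc3 and Trim7 overlap other genes, which leaves their values uncertain because the strand used in counting is not given in the sources used here.

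**Figure D2:**
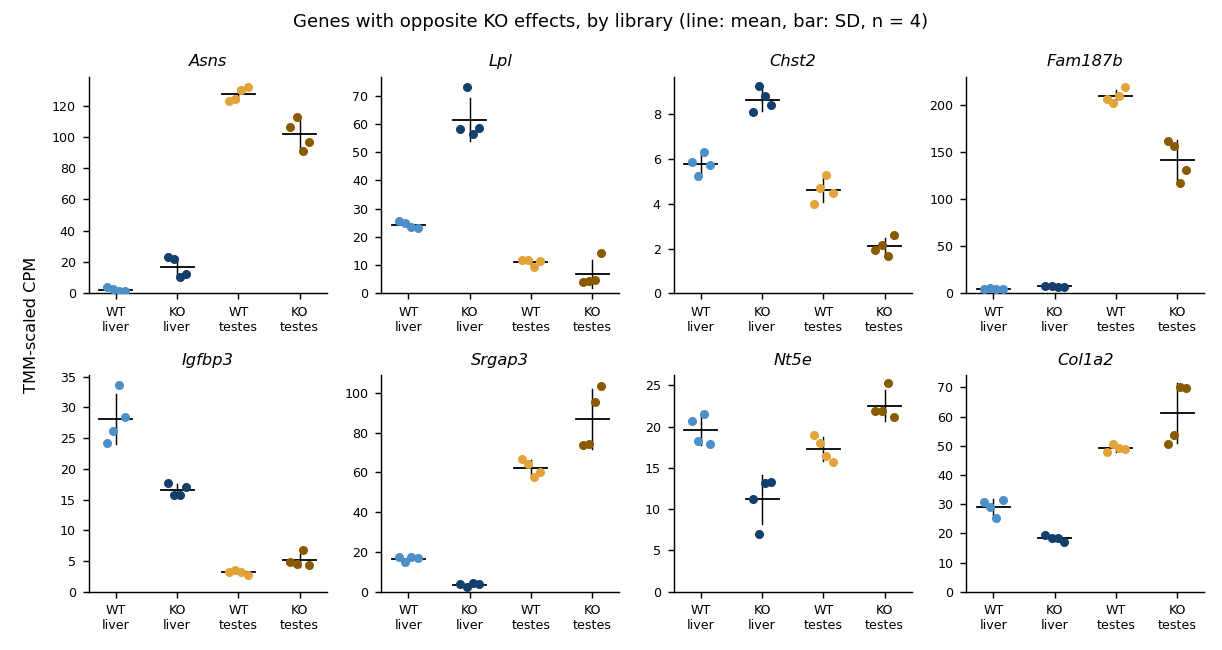
TMM-scaled CPM (y axis, from 0) of 8 genes with opposite knockout effects in WT and KO liver and testes (x axis), with a point per library in number order, the group mean as a line and the SD as a bar (n = 4). Asns, Lpl, Chst2 and Fam187b were higher in KO liver and lower in KO testes, apart from 1 KO testes library of Lpl, and Igfbp3, Srgap3, Nt5e and Col1a2 were lower in KO liver and higher in KO testes.

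In 248 genes the difference was called together with the liver effect, and the testes effect did not pass. Dpy19l3, a C-mannosyltransferase of the endoplasmic reticulum, fell from 36.8, 31.8, 30.6 and 26.2 CPM in WT liver to 6.79, 6.91, 9.65 and 10.03 CPM in KO liver. Its testes libraries stood at 9.84 to 11.5 CPM in WT and 11.2 to 14.3 CPM in KO. The liver change was -1.86 ± 0.16, the testes change 0.24 ± 0.09 (adjusted p = 0.069) and the difference 2.11 ± 0.18 (adjusted p = 4.87e-06). Arhgef16, an exchange factor for small GTPases, and Gal3st1, which makes sulfatide, fell in liver as well, with log2 effects of -1.78 and -1.96, and stood at 0.34 and 0.29 in testes. Cyp26b1, which degrades retinoic acid, stood at 35.9, 33.6, 56.7 and 53.1 CPM in WT liver and 31.7, 28.1, 4.89 and 5.74 CPM in KO liver. Its low values were those of KO libraries 7 and 8, whereas 5 and 6 lay just under the WT libraries, and its difference of 2.26 ± 0.49 no longer passed in DESeq2 or edgeR.

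Among genes higher in KO liver, Mtnr1a, the melatonin receptor, stood at 3.204, 2.48, 2.19 and 1.68 CPM in WT and 6.79, 8.52, 7.17 and 7.94 CPM in KO (change 1.66 ± 0.19, difference -2.03 ± 0.28, adjusted p = 0.000715). Its testes libraries were at 1.52 to 2.67 CPM in WT and 1.202 to 1.65 CPM in KO, and overlapped. Srrm4, a regulator of neural microexons, had log2 effects of 1.90 in liver and -0.03 in testes. Sntg1, a syntrophin, had log2 effects of 1.73 and -0.20. Serpinb6b, a protease inhibitor, had log2 effects of 1.77 and 0.07, and Enho, which encodes the secreted peptide adropin, had 1.40 and -0.22. A test that passed in liver and missed in testes does not by itself show a difference, and each of these genes is named because the difference passed as well.

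The largest class, 568 genes, was called in the difference and in testes, and not in liver. Rundc3a, a RUN-domain protein gene, fell from 39.1, 45.9, 43.8 and 44.8 CPM in WT testes to 18.9, 20.4, 16.1 and 15.5 CPM in KO testes, a change of -1.31 ± 0.09 against -0.05 ± 0.31 in liver (difference -1.23 ± 0.31, adjusted p = 0.0207). Slc38a1, a transporter of glutamine and other neutral amino acids, fell from 7.303, 8.55, 7.85 and 7.53 CPM to 3.02, 3.02, 5.398 and 2.75 CPM in testes, with 0.12 in liver. The adhesion protein gene Ntm and the Src inhibitor gene Srcin1 had log2 effects of -0.89 and -0.52 in testes and 0.29 and 0.69 in liver. Cyp2e1, a cytochrome P450 that hepatocytes make in bulk, had 5057 to 6190.0 CPM in WT liver and 4691 to 7826 CPM in KO liver, which overlapped. In testes it stood at 4.601, 4.85, 3.94 and 4.07 CPM in WT and 0.665, 0.494, 2.39 and 3.59 CPM in KO, and this difference of -1.71 ± 0.52 (adjusted p = 0.0438) was lost under most alternatives.

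Higher in KO testes were Ildr2, an immunoglobulin-domain receptor, which went from 2.92, 3.48, 2.91 and 2.77 CPM to 4.99, 4.63, 6.24 and 5.62 CPM (testes change 0.84 ± 0.13, liver -0.39 ± 0.15, adjusted p of the difference 0.0086), and Npnt, the matrix protein nephronectin, which went from 3.83, 4.898, 4.38 and 4.85 CPM to 6.01, 5.796, 7.801 and 7.45 CPM. Heyl, an effector of Notch signalling, had log2 effects of 0.69 in testes and -0.52 in liver, with overlapping libraries in both. Pclo, a scaffold protein of secretory sites, had log2 effects of 0.64 and -0.60, and Prrg3, a membrane protein with a Gla domain, had 0.46 and -0.82. For Npnt and Prrg3 the difference passed narrowly (adjusted p = 0.0366 and 0.0481) and was lost under 13 and 18 alternatives.

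Summed levels of cell type markers were compared between WT and KO in 24 exact permutation tests. Complete separation of 4 libraries from 4 gave an adjusted p of 0.0623, the lowest reached. That no list passed is therefore no sign of equal levels. Bulk RNA cannot tell fewer cells of a type from less RNA per cell. The study's histology describes testicular atrophy with lost or vacuolated germ cells in KO mice, and its part in these sums was not tested. The summed CPM of 20 elongating spermatid markers was 20860 to 22400 in WT testes and 13670 to 18600 in KO testes, with 0 of 20 members higher in KO. Of 23 round spermatid markers 0 were higher in KO (sum 4957 to 5160 in WT, 3379 to 4439 in KO). Spermatocyte markers summed to 7495 to 7973 CPM in WT and 6029 to 7139 CPM in KO, with 6 of 21 higher. All 25 Sertoli cell markers were higher, the sum going from 2080 to 2374 CPM in WT to 2531 to 3208 CPM in KO. Each of these sums had p = 0.0286 in a two-sided exact permutation test, the smallest that 4 against 4 can give, and 0.0623 after adjustment, as did stellate and fibroblast markers, 21.2% higher in KO testes, and macrophage markers, whose sum was 13.7% lower with 14 of 20 members higher. Endothelial, Leydig, spermatogonial, bile duct and blood lists had p from 0.229 to 0.8 in testes (exact permutation tests). Most such genes could not enter the comparison with liver: 0 of 23 round spermatid, 1 of 20 elongating spermatid and 8 of 25 Sertoli cell markers passed the filter in both tissues. In liver, hepatocyte markers summed 19.8% higher in KO with 10 of 16 members higher, Kupffer cell and macrophage markers 9.01% higher with 18 of 20, and bile duct markers 9.59% higher with 4 of 9, each with p = 0.0286 (exact permutation test, adjusted 0.0623). The Sertoli and Leydig lists, read in liver, summed 14.0% and 18.8% lower with the same p. The sperm markers Prm1, Tnp1, Tnp2 and Odf1 were at 0. The part of these shifts in any difference between the tissues was not tested.

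Besides Thumpd1, 7 genes were called in both tissues with the same sign and in the difference. Pkmyt1, the membrane kinase that restrains Cdk1, fell more in liver (-1.18) than in testes (-0.29, with overlapping libraries), as did Kcnk5, a potassium channel (-1.17 and -0.44). Cdk18, a cyclin-dependent kinase, fell more in testes (-0.81) than in liver (-0.35). The imprinted noncoding RNA Meg3 rose in both, by 1.40 in liver, where WT libraries stood at 5.15 to 6.46 CPM and KO libraries at 11.7 to 18.02 CPM, and by 0.28 in testes. Syne1, a nuclear envelope protein of the LINC complex, rose by 0.50 and 0.22. The difference was lost under 19 of 28 alternatives for Syne1, TMM factors within each tissue and upper-quartile factors among them, under 13 for Cdk18 and under 12 for Kcnk5. Exons of Meg3, Pkmyt1 and Cdk18 overlap other genes.

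Of the 44 genes of the integrated stress response list, 27 could be compared. The testes effect was called higher in 5 and lower in 2 (4.78% and 5.07% over all genes), and the median difference was 0.07 against -0.02 over all genes. The higher calls numbered 3 without KO testes library 7 or 8 or WT liver library 2, 2 without WT testes library 3 or 4, and 1 with library totals or without the filter. The lower calls numbered 1 in most fits that left out a library. In liver 5 of 27 fell (18.5%, against 3.45% over all genes) and Asns alone rose (2.33% over all genes), and in testes 2 rose and 4 fell (7.41% and 14.8%, against 9.53% and 14.4%). The transporters Slc6a9 (glycine) and Slc1a4 (neutral amino acids), the alanine transaminase Gpt2 and the tRNA exporter Xpot fell in KO liver, by changes of -0.74, -0.37, -0.37 and -0.29, and had 0.19, 0.42, 0.23 and -0.03 in testes, where none passed. Ero1l, an oxidase of the endoplasmic reticulum, had a difference of 0.39 (adjusted p = 0.028) without passing in either tissue. Ddit3, which encodes CHOP, stood at 5.92, 4.92, 4.76 and 5.52 CPM in KO liver against 4.47, 4.702, 3.38 and 3.23 CPM in WT, and at 23.1, 23.2, 18.2 and 21.4 CPM in KO testes against 24.1, 25.9, 25.96 and 24.7 CPM in WT. Its libraries did not overlap in either tissue, neither tissue passed alone, and the difference of -0.65 ± 0.19 (adjusted p = 0.0363) is uncertain because Ddit3 and Mars overlap on opposite strands and because 16 alternatives lost it. Chac1 and Herpud1, further Atf4 and unfolded protein response targets, fell in testes (-0.62 and -0.41) and had -0.09 and -0.05 in liver, with no called difference.

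All 23 cytosolic aminoacyl-tRNA synthetase genes were measured, and 3 had a called higher testes effect (4.78% over all genes) and 0 a lower one. This count was 1 without any one of KO liver libraries 5 and 6, KO testes 7 and 8, WT liver 1 and 2 and the 4 WT testes libraries, and 1 with library totals or without the filter. Iars (isoleucine) stood at 64.95, 63.3, 62.5 and 59.8 CPM in WT liver and 53.9, 55.7, 55.4 and 54.3 CPM in KO liver, and at 51.6, 47.9, 47.8 and 48.1 CPM in WT testes and 55.2, 53.6, 59.5 and 58.9 CPM in KO testes. These groups separated in opposite directions, but the liver change of -0.19 ± 0.06 missed the threshold (adjusted p = 0.072), and the difference was 0.41 ± 0.08 (adjusted p = 0.00388). Aars (alanine) had log2 effects of -0.28 in liver and -0.02 in testes, with a difference of 0.26 (adjusted p = 0.0413), and Mars (methionine) had -0.16 and 0.22. Both were lost under 16 of the alternatives. Vars and Qars fell in both tissues with no called difference. The list's median difference was 0.03.

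Matches to TGATGNAA were found in 4 of 23 stress response genes with a RefSeq promoter (Slc1a4, Chac1, Asns and Herpud1) and in 5 of 15 synthetase genes (Tars, Yars, Gars, Aars and Iars), against 4.51% of all genes with a promoter. Stretches of 40 bases around the match are shown for the called genes other than Asns, with the match in capitals. They read in the opposite orientation to the Asns match, as TTGCATCA, and lie on GRCm38.p6 at chr13:49682121-49682160 (plus strand, Iars), chr8:111033714-111033753 (plus, Aars) and chr11:20332694-20332733 (minus, Slc1a4).
Iars: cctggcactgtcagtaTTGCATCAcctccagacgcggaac
Aars: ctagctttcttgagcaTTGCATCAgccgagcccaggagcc
Slc1a4: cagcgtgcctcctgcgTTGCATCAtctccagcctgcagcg
Genes with the match did not share a direction, since Asns rose in KO liver while Aars and Slc1a4 fell there. A match is a description of letters and says nothing of binding.

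For the 18 genes of the eIF2α kinases, phosphatases and their partners, limma-voom called 0 differences (9.85% over all genes), as did edgeR and DESeq2. An unadjusted p under 0.05 was reached by 2 of them (11.1%, against 26.9% of all genes). The replicate block called 1 lower, and 1 was called higher without WT liver library 4. Endoplasmic reticulum chaperones gave 3 of 28, all with a higher testes effect, a share (10.7%) near the 9.85% over all genes that became 0 with library totals or without the filter. Of these, Hyou1 and Sel1l fell in liver (-0.38 and -0.24) and the sensor kinase Ern1 rose in testes (0.37). Heat shock chaperones gave Hsp90ab1 alone of 29 (difference 0.25), p53 targets the nuclease gene Aen alone of 18 (0.53), and the mTORC1 list Rragd and Fnip1 of 35, both with a lower testes effect (-0.74 and -0.53). These shares (3.45%, 5.56% and 5.71%) stood against 9.85% over all genes. Calls were lost under 10 alternatives for Hsp90ab1, edgeR and library totals among them, under 8 for Aen, 4 for Rragd and 5 for Fnip1. The replicate block called 4 heat shock, 2 p53 and 4 mTORC1 genes, DESeq2 called 2 p53 and 5 mTORC1 genes, and the fit of all 24 libraries called 6 mTORC1 genes. The mTORC1 count was 1 with library totals or a CPM of at least 5, and 0 without the filter.

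All 79 cytosolic ribosomal protein genes were measured, and in 16 the testes effect was called below the liver effect, with 0 above (background 5.07% and 4.78%). The difference was negative in 74 of 79, with a median of -0.26. In testes 16 fell (20.3%, against 14.4% over all genes) and Rpl14 rose, with a median change of -0.16. In liver 4 rose and 0 fell (2.33% and 3.45% over all genes), with a median of 0.10 and 32.9% at an unadjusted p under 0.05, against 23.7% of all genes. Rpl35 stood at 109, 116, 112 and 114 CPM in WT testes and 98.2, 99.9, 84.1 and 73.9 CPM in KO testes, and at 80.2, 82.1, 95.5 and 90.3 CPM in WT liver and 116, 115, 102 and 93.5 CPM in KO liver. The testes libraries separated and the liver libraries overlapped, and the difference was -0.63 ± 0.13 (adjusted p = 0.00665). Further called members were Rps18 with a difference of -0.54 ± 0.13, Rps14 -0.82 ± 0.23 and Rpl5 -0.46 ± 0.14. In both tissues, KO libraries 5 and 6 of Rpl35 and of Rps18 stood above 7 and 8. The count of 16 became 3, 7 and 8 without WT liver library 1, 3 or 4, 10, 9, 9 and 4 without WT testes library 1, 2, 3 or 4, 6 and 5 without KO liver library 5 or 6, 6 and 10 without KO testes library 7 or 8, and 30 without KO testes library 5, while the median difference stayed between -0.32 and -0.18. Under 4 other scalings it ran from 4 to 14, and in DESeq2, which changes the test as well, it was 20. It was 28 in the fit of all 24 libraries, 25 with the replicate block and 1 without the filter. The medians kept their signs in both tissues under the other scalings and in DESeq2. Many of these genes have processed copies elsewhere in the genome, so reads may have been split between copies.

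Ribosomal protein mRNAs often begin with a C followed by a run of pyrimidines, the terminal pyrimidine tract through which mTORC1 controls their translation. Such a tract, a C and at least 4 pyrimidines at the RefSeq start, was present in 14 of 58 measured genes with a promoter entry (24.1%) and in 3 of the 11 called genes (27.3%), against 3.01% of all genes with a promoter. The 3 are shown as 30 bases around the start with the tract in capitals, followed by Rps7, a called gene without a tract at its annotated start. They lie on GRCm38.p6 at chr2:39005112-39005141 (minus, Rpl35), chr17:33955646-33955675 (minus, Rps18), chr11:114668570-114668599 (plus, Rpl38) and chr12:28635934-28635963 (minus, Rps7).
Rpl35: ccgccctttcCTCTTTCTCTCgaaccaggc
Rps18: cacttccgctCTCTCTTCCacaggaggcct
Rpl38: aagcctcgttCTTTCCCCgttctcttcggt
Rps7: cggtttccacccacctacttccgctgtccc
Annotated starts can lie some bases from the start in use.

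Of 39 nuclear genes of the respiratory chain 2 were called, Uqcrq (-0.59) and Sdhb (-0.38), both with a lower testes effect (5.07% over all genes). The difference was negative in 32 of the 39 and had an unadjusted p under 0.05 in 15 (38.5%, against 26.9% of all genes). Lower calls numbered 8 in DESeq2, 10 in the fit of all 24 libraries, 11 with the replicate block, 6 with a CPM of at least 5, 0 with library totals and without the filter, and 1 under TMM factors within each tissue, quantile normalization, upper-quartile factors or weights per tissue. Leaving out 1 library gave 0 (KO testes 7, WT liver 3 or 4) to 11 (KO testes 5), with 8 without KO testes 6, 5 without KO liver 8, 3 without WT testes 1 and 1 without each of the others. The list's median change was -0.15 in testes and 0.07 in liver. Sdhb lost its call under 21 of 28 alternatives. Of 36 proteasome genes Psma6 alone was called (-0.58), a share of 2.78% against 9.85% over all genes, and 9 alternatives lost it, while DESeq2 and the fit of all 24 libraries called 2.

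Extracellular matrix genes ran the other way. Of 35 measured, the testes effect was called above the liver effect in 7 and below it in 0 (4.78% and 5.07% over all genes). The median change was 0.18 in testes, where 7 of 35 rose (9.53% over all genes) and 0 fell, and -0.14 in liver, where 5 of 35 fell (14.3%, against 3.45% over all genes) and 0 rose, and the median difference was 0.36. Col1a2, a chain of type I collagen, stood at 30.7, 29.1, 25.2 and 31.4 CPM in WT liver and 19.3, 18.3, 18.3 and 17.2 CPM in KO liver, and at 47.8, 50.6, 49.2 and 49 CPM in WT testes and 50.7, 53.7, 69.95 and 69.8 CPM in KO testes, with a difference of 0.97 ± 0.16 (adjusted p = 0.00164). KO testes libraries 5 and 6 lay just above WT and libraries 7 and 8 well above. Its partner Col1a1 had log2 effects of -1.02 in liver and 0.14 in testes, the fibrillar collagen Col3a1 had -0.56 and 0.18, and the type VI chains Col6a1 and Col6a3 had -0.66 and -0.29 in liver and 0.16 and 0.30 in testes. Sparc, a collagen-binding glycoprotein, rose in testes (WT libraries 247 to 259.7 CPM, KO libraries 298 to 390.5 CPM, difference 0.44), as did the protease inhibitor Timp3 (0.32). The count rose to 12 without KO testes library 5 and was 5 to 10 without any 1 of the others. It was 11 in DESeq2 and in the fit of all 24 libraries, 14 with the replicate block and 4 without the filter. Beside this stood the stellate and fibroblast markers, of which Col1a1, Col1a2 and Col3a1 are also in the matrix list. Their sum was 298 to 336 CPM in WT testes and 336 to 435 CPM in KO testes, with 12 of 15 members higher, and 542 to 572 CPM in WT liver and 504 to 618 CPM in KO liver, with 6 of 15 higher. Their part in the matrix result was not tested.

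**Figure D3:**
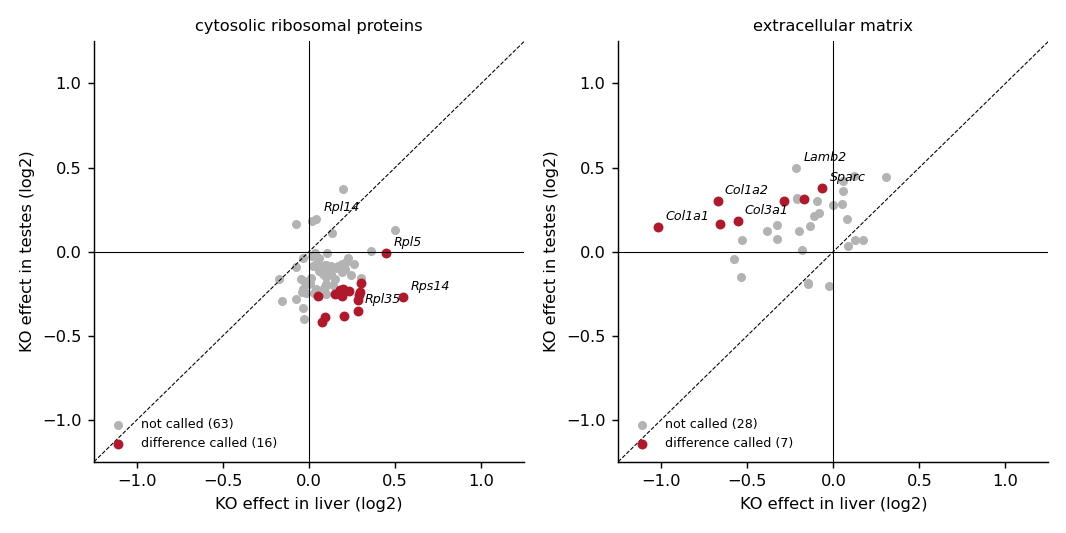
Knockout effect in liver (x axis, log2 KO/WT) against testes (y axis, log2 KO/WT) for each of 79 cytosolic ribosomal protein genes (left) and 35 extracellular matrix genes (right), red where the difference was called; the dashed line marks equal effects. Ribosomal protein genes lie mostly below the line (74 of 79) and matrix genes mostly above it (29 of 35).

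Of 20 measured circadian clock genes, 8 had a called difference, 7 with a higher and 1 with a lower testes effect (4.78% and 5.07% over all genes). In all 7 the testes libraries overlapped, and the liver effect passed in 6 of them. Dbp, an output regulator of the clock, stood at 13.1, 10.3, 17.5 and 17.3 CPM in WT liver and 3.13, 3.41, 1.89 and 1.55 CPM in KO liver, and at 13.2, 14.6, 14.03 and 13.2 CPM in WT testes and 12.3, 12.5, 18.1 and 14.9 CPM in KO testes. Its change was -2.66 ± 0.30 in liver and 0.07 ± 0.12 in testes, and the difference 2.71 ± 0.31 (adjusted p = 0.000141). The repressor Nr1d1 stood at 162, 166, 176 and 154 CPM in WT liver and 107, 105, 67.5 and 68.1 CPM in KO liver, a change of -0.98, with -0.02 in testes. Per3, Per2 and Cry2, which form the repressing arm, had log2 effects of -0.92, -0.99 and -0.42 in liver and 0.10, -0.29 and 0.03 in testes, and Tef, a relative of Dbp, had -0.47 and -0.01. Nr1d2 differed by 0.74 without passing in either tissue. Cry1 alone differed in the other direction (-0.33, adjusted p = 0.0394), without passing in either tissue. Settings that lost its call included TMM factors within each tissue, upper-quartile factors and leaving out KO liver library 5. Exons of Dbp, Nr1d1, Tef and Cry2 overlap genes on the other strand. The time of day at which tissues were taken is not given in the sources used here, and whether it differed between genotypes was not tested.

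The palindrome CACGTG, the E-box bound by Clock and Bmal1, was found in the promoters of 3 of 16 measured clock genes with a RefSeq entry (Cry1, Per1 and Tef), 2 of them called, against 8.09% of all genes with a promoter. The called genes are shown over 40 bases with the E-box in capitals, Tef at 2 annotated starts, on GRCm38.p6 at chr10:85185092-85185131 (minus, Cry1), chr15:81802529-81802568 (plus, Tef) and chr15:81811259-81811298 (plus, Tef).
Cry1: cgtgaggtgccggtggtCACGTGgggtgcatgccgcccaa
Tef, first start: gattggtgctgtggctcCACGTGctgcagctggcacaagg
Tef, second start: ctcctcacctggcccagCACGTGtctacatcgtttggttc
Both genes hold the same letters, and their differences had opposite signs.

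Of 18 fatty acid synthesis genes, 8 had a called difference. The testes effect was called higher in 7 and lower in 1 (4.78% and 5.07% over all genes), and the median change was -0.28 in liver and 0.12 in testes. Srebf1, the transcription factor that drives the pathway, stood at 719, 734, 549 and 546 CPM in WT liver and 353, 324, 348 and 322 CPM in KO liver, and at 17.2, 24.7, 17.3 and 17.1 CPM in WT testes and 17.6, 17.99, 24.4 and 25.9 CPM in KO testes. All KO liver libraries were below all WT liver libraries, while testes overlapped, and the difference was 1.08 ± 0.20 (adjusted p = 0.00328). Fatty acid synthase (Fasn) stood at 2729 ± 275 CPM in WT liver and 1465 ± 322 CPM in KO liver (SD, n = 4), a change of -0.91, with 0.11 in testes. The NADPH-yielding malic enzyme Me1 had log2 effects of -0.68 in liver and -0.06 in testes. Mlxipl, the glucose-responsive regulator ChREBP, rose in testes from 19.4, 18.4, 16.1 and 14.2 CPM to 20.4, 22.6, 25.7 and 31.1 CPM (0.54 ± 0.13), while its liver change of -0.29 ± 0.09 missed the threshold (adjusted p = 0.0865) although KO and WT did not overlap. The carboxylases Acaca and Acacb and the desaturase Scd2 differed by 0.34, 0.66 and 0.62. Acsl5, which activates fatty acids to their CoA esters, was the exception, falling in testes from 30.2, 28.9, 29.2 and 26.98 CPM to 23.4, 20.02, 18.4 and 19.9 CPM (-0.50), with 0.16 in liver. The higher calls numbered 3 without any one of KO liver library 8, KO testes library 7 and WT testes libraries 1, 3 and 4, and 4 without WT liver library 2 or KO testes library 8.

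**Figure D4:**
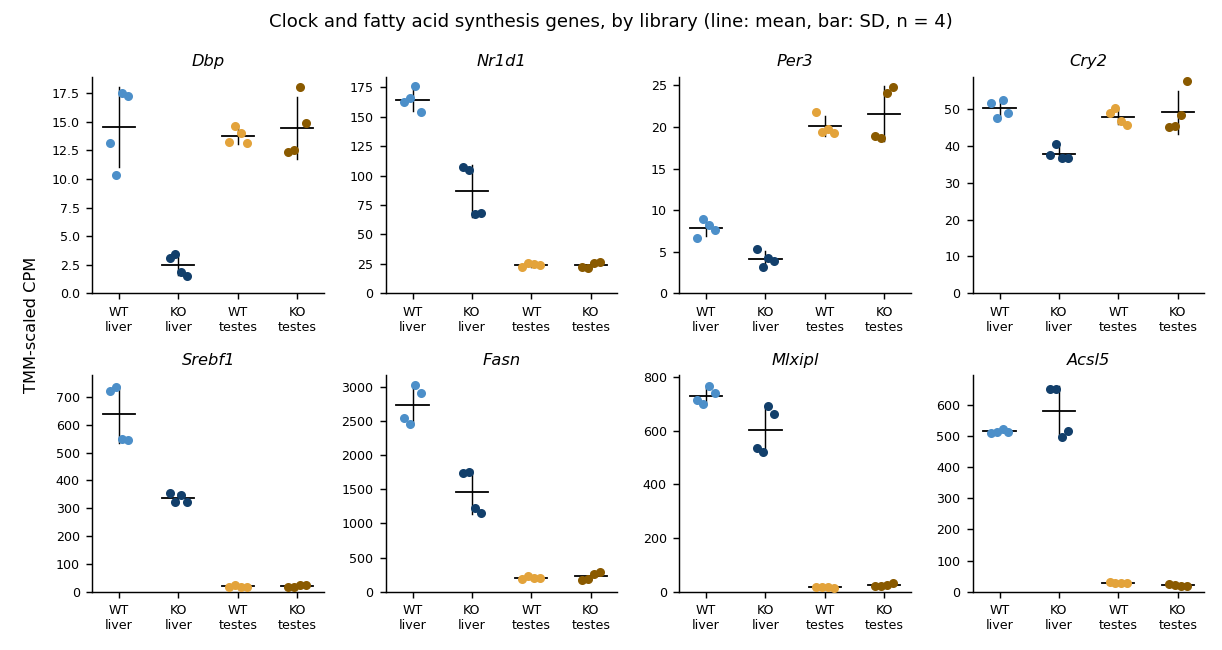
TMM-scaled CPM (y axis, from 0) of 4 clock genes (top) and 4 fatty acid synthesis genes (bottom) in WT and KO liver and testes (x axis), with a point per library in number order, the group mean as a line and the SD as a bar (n = 4). Dbp, Nr1d1, Per3, Cry2, Srebf1 and Fasn fell in KO liver with overlapping testes libraries, and KO liver libraries 5 and 6 of Nr1d1, Fasn, Mlxipl and Acsl5 stand apart from 7 and 8.

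Of 24 cholesterol genes 3 were called, 12.5% against 9.85% over all genes. The count was 6 in DESeq2, 5 in the fit of all 24 libraries, 1 with library totals and 0 without the filter. Among them, Mvd fell in liver (-1.05, difference 0.75), Pmvk fell in testes (-0.33, difference -0.51) and Ebp differed by 0.42. Mvd lost its call under 11 of 27 alternatives, Ebp under 9 of 28 and Pmvk under 3 of 28. Without KO liver library 8 the cholesterol list had 0 higher calls. Both tissues had a lower list median in KO, -0.20 in liver and -0.18 in testes. Of 22 fasting and fat oxidation genes, the lipid droplet coat Plin2 and the receptor Ppara had a lower testes effect (-0.58 and -0.58), 9.09% against 9.85% over all genes, and Ppara lost its call under 19 of 27 alternatives. The list had 5 calls in the fit of all 24 libraries, 4 with the replicate block and 0 with library totals. Glutathione and Nrf2 genes were split, 4 higher and 4 lower of 32 (4.78% and 5.07% over all genes): Gsta3, Srxn1 and the lipid peroxidase Gpx4 fell in testes (-0.66, -0.61 and -0.43), Gstm2 and Gstt3 fell in liver (-0.92 and -0.52), and Gclc rose in liver (0.22). The higher calls numbered 2 without any one of KO liver library 8, KO testes 7, WT liver 2 and WT testes 3 and 4, and 2 with library totals, quantile normalization or no filter, and the lower calls 2 with library totals and 1 without the filter. The glutathione transferases are a family of close copies, and reads may have been split between them.

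The growth hormone and insulin-like growth factor list had 4 higher and 1 lower of 19 (4.78% and 5.07% over all genes), with a median change of 0.23 in testes and 0.03 in liver. The higher calls numbered 2 without any one of KO liver library 8, KO testes 7 and 8, WT liver 3 and WT testes 2, 3 and 4, and 2 with library totals, quantile normalization, a CPM of at least 5 or no filter. Igf1 stood at 17.9, 15.5, 14.5 and 14.3 CPM in WT testes and 22.6, 23.4, 23.1 and 20.8 CPM in KO testes, a clean separation (0.53 ± 0.08). In liver, the main source of the circulating hormone, it stood at 498, 501, 395 and 419 CPM in WT and 361, 357, 384 and 414 CPM in KO, with overlap (-0.25 ± 0.09, adjusted p = 0.112), and the difference was 0.79 ± 0.13 (adjusted p = 0.00225). Igfbp2, a binding protein that rises when growth hormone action is low, went from 565, 587, 848 and 841 CPM in WT liver to 1294, 1220.0, 1501 and 1391 CPM in KO liver (0.95), with -0.11 in testes. The adaptor Irs1 rose in testes (0.75) and the feedback inhibitor Socs3 fell in liver (-0.91), and their differences were 0.63 and 1.20. In testes Igf1r rose by 0.65 with no called difference. Socs2, a growth hormone target, had a difference of -1.31 ± 0.78 that was not called (adjusted p = 0.29).

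Immediate early genes, which respond within minutes to stimuli and to handling, gave 1 higher and 3 lower of 20 (4.78% and 5.07% over all genes). Dusp5 and Maff rose in KO liver (1.05 and 1.45) with -0.27 and 0.34 in testes, and Nr4a1 and Zfp36 differed by -1.19 and 0.69 without passing in either tissue. The lower calls became 0 with a CPM of at least 5, the higher call was lost without any one of KO liver library 5 or 6, KO testes 7 or 8, WT liver 2 or 3 and WT testes 1, 3 or 4, and Nr4a1 lost its call under 12 alternatives. Of 27 NF-κB and TNF response genes 2 were higher and 3 lower (4.78% and 5.07% over all genes). The phosphodiesterase Pde4b stood at 45.4, 40.9, 33.9 and 36.7 CPM in WT liver and 23.1, 22.4, 22.6 and 25.7 CPM in KO liver, with a difference of 0.91 ± 0.12 (adjusted p = 0.000588), the Notch ligand Jag1 fell in testes (-0.41), and Btg1 was described above. Apoptosis genes were 2 higher and 2 lower of 34, a share (11.8%) near the 9.85% over all genes. The survival genes Bcl2l2 and Birc3 rose in KO testes (0.40 and 0.58), Diablo fell there (-0.25), and the Bcl2 family member Bok rose in KO liver (0.45). Of 22 interferon response genes, Dhx58, a cytosolic RNA sensor, fell in testes (-0.67) and Oasl1 fell in liver (-0.51), 9.09% called against 9.85% over all genes, and 10 alternatives lost Oasl1. Of 26 cell cycle genes, the inhibitors Cdkn1b and Cdkn2c differed in opposite directions (0.45 and -0.78), Cdkn1b rising and Cdkn2c falling in testes. They make up 7.69% of the list, against 9.85% over all genes, and lost their calls under 11 and 10 alternatives. The list had 4 calls in DESeq2, in the fit of all 24 libraries and with the replicate block, and 0 with quantile normalization or without the filter.

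**Figure D5:**
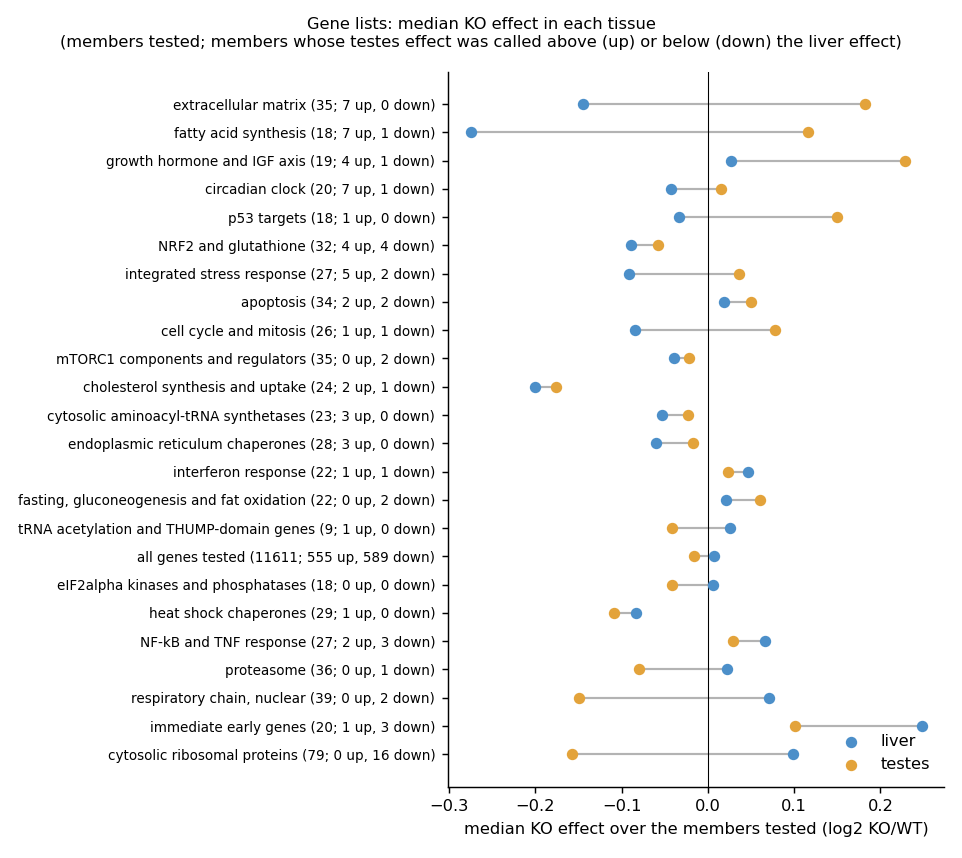
Median knockout effect (x axis, log2 KO/WT) over the measured members of 23 gene lists and over all genes tested, in liver (blue) and testes (orange), with the number tested and called in each row and rows ordered by the median difference. Ribosomal protein genes (79 members, 16 called lower) stand at the bottom, with -0.16 in testes and 0.10 in liver, and extracellular matrix genes (35 members, 7 called higher) at the top, with 0.18 and -0.14.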

How the data were processed

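RNA was measured in liver, cerebellum and testes by stranded, paired-end total RNA sequencing after removal of ribosomal RNA. The authors aligned reads with STAR to mm10 and deposited RSEM expected counts per gene of GENCODE M21, not normalized and without replicates pooled. No version of these tools is given in the sources used here, nor the strand setting of the counting. From the deposited expected counts of 16 libraries, genes with a CPM of at least 1 in at least 4 of 8 libraries of each tissue were kept, TMM factors were computed, and limma-voom (limma 3.58.1, edgeR 4.0.16, R 4.3.3) gave the contrast of the knockout effects in testes and liver. The effect within a tissue came from a fit of its own 8 libraries with the same genes and factors. The difference instead took 1 spread per gene from all 16 libraries, so it can look more precise than the change in the noisier tissue. Spread was unequal, with a median SD of log2 CPM of 0.0844 in WT testes and 0.157 in KO liver. With weights per tissue, 1075 differences were called. A call is a Benjamini-Hochberg adjusted p under 0.05 over all genes tested. RSEM assigns reads that match several copies by estimation, which can blur close paralogs. Overlapping exons make the values of further named genes uncertain, among them Srebf1, Acsl5, Rpl35, Rps18, Slc6a9, Aars, Enho, Srrm4 and Pclo. Depth was 18145725 to 37889615 counts, and the spread between replicates exceeded counting noise (chi-square per gene and degree of freedom 2.31 to 346, over 24 pairs), so no library was a copy of another.

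The part of the series, the gene lists and the tests were chosen with earlier results of these data known. Named genes are Thumpd1, Nat10, Atf4, Ddit3 and Asns, then, without predicted genes, pseudogenes and genes under a mean of 1 log2 CPM, up to 8 genes per orientation with opposite effects by the smaller absolute effect, up to 5 per direction called in liver or in testes alone and up to 3 per direction called in both with the same sign by the absolute difference, and up to 3 members per list by p. Other members of lists and of the opposite genes are named where counts are described. Cell type markers were summed as CPM and compared by exact permutation. Promoters came from RefSeq (GRCm38.p6) and were matched by symbol. DESeq2 1.42.0 and edgeR on counts rounded to whole numbers, other scalings and filters, all 24 libraries, other estimates of spread, a replicate block and leaving out each library were the alternatives. Summing neighbouring libraries was added after seeing the data. The scripts were tested on simulated data.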

Additional observations from a re-analysis of the deposited data

Results flagged for a closer look

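The difference of the knockout effect between testes and liver passed its test in 1144 genes, and in 49 of them the effects were called in both tissues with opposite signs.

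Single libraries stood apart from the other 3 of their group in 20 of 380 sets of 4 values (5.26%), by Dixon's criterion at its 95% level, which chance meets in about 1 of 20 sets. Among genes with opposite effects, Lpl was at 14.4 CPM in KO testes library 8 (others 3.96 to 4.60), at 9.50 CPM in WT testes library 3 (11.5 to 11.9) and at 73.0 CPM in KO liver library 6 (56.5 to 58.5). Rbm20 was at 2.99 CPM in WT liver library 2 (3.57 to 3.64) and Rbms1 at 89.9 CPM in WT testes library 1 (84.8 to 85.3). Among genes called in 1 tissue, Gal3st1 was at 1.22 CPM in KO liver library 5 (1.55 to 1.63), Arhgef16 at 0.694 CPM in KO testes library 5 (1.17 to 1.253), Prrg3 at 2.49 CPM in WT liver library 4 (2.04 to 2.08), Slc38a1 at 5.40 CPM in KO testes library 7 (2.75 to 3.02) and Srcin1 at 151 CPM in WT testes library 1 (178 to 181).

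Among the synthetases, Iars was at 51.6 CPM in WT testes library 1 (47.8 to 48.1), Aars at 377 CPM in WT liver library 4 (422 to 428) and Mars at 112 CPM in KO liver library 8 (98.4 to 100.3). In the metabolic and clock lists, Srebf1 was at 24.7 CPM in WT testes library 2 (17.1 to 17.3), Acsl5 at 524 CPM in WT liver library 3 (511 to 513), Mvd at 45.5 CPM in WT liver library 3 (40.1 to 40.7) and Tef at 69.6 CPM in KO liver library 6 (60.1 to 61.5). Gstm2 was at 300 CPM in KO testes library 7 (207 to 215), Hsp90ab1 at 231 CPM in WT testes library 2 (214 to 216) and Sdhb at 56.3 CPM in WT testes library 2 (52.3 to 52.7).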

How the results depend on the processing

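The 1144 differences became 1843 (933 higher, 910 lower) in a fit of all 24 libraries, 479 (271 and 208) with library totals alone, 307 (223 and 84) without the filter and 4 (2 and 2) with neighbouring libraries summed, and DESeq2 called 840 higher. Opposite genes numbered 113 in DESeq2, 18 with library totals, 9 without the filter and 0 with neighbours summed. Calls in liver were 1337 in DESeq2, 178 with library totals, 189 without the filter, 1120 from the 16-library fit and 13 with neighbours summed, and calls in testes 1 with neighbours summed. Called list members numbered 49 with library totals, 38 without the filter and 0 with neighbours summed. Without the filter, 72.6% of calls were higher against 48.5% in the report, and the share exceeded 60% without KO liver library 5, 6 or 7 or WT liver library 1, 3 or 4 (61.0%, 62.6%, 65.7%, 63.9%, 63.2% and 64.5%).

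With each library left out in turn, differences ran from 532 to 1613 (245 to 789 higher, 270 to 824 lower), opposite genes from 16 to 76, calls in testes from 1266 to 3429, calls in liver from 236 to 866, and called list members from 49 to 133. Of the named genes' values under all alternatives, 2187 kept direction and call, 425 lost the call and 11 reversed. All reversals were those of Atf4, which was not called: 0.004426 in DESeq2, 0.000119 in edgeR, 0.02875 with library totals, 0.09412 without the filter, 0.005951 with upper-quartile factors, and -0.1494 to 0.135 with libraries left out. Summing neighbours removed the call of 90 of 95 named genes. The leave-out and summed fits held fewer samples and the fit without the filter more genes, and the cause of these shifts was not tested.

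Liver and testes share library numbers, and the number was not taken to pair them, since 2 of 8 same-numbered pairs had r above 0.1 and 2 correlated best with their own number. Deviations of same-numbered libraries had r from 0.0823 to 0.105 in KO and -0.0844 to -0.00843 in WT. In KO, the 8 pairs of a liver and a testes library within 5 and 6 or within 7 and 8 had r from 0.0196 to 0.224. The 8 KO pairs across these sets had r from -0.221 to -0.0432, so the KO sets split alike in both tissues, weakly. WT did not show this: r was -0.116 to 0.122 within sets (2 of 8 positive) and -0.108 to 0.0983 across sets (6 of 8 positive). A replicate block called 1624 differences, 756 of them higher, and changed the call of 2 named genes.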

Other observations

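Genes on the X chromosome leaned to 1 side. Of 315 measured, 43 had a called difference (13.7%, against 9.85% of all genes), 42 with a higher testes effect and 1 with a lower one. The median log2 knockout effect over the X-linked genes was 0.25 in testes and 0.05 in liver. On chromosomes 1, 2 and 19, called genes were split 33 and 45, 40 and 41, and 22 and 30. In the testes libraries, round spermatid markers summed lower and Sertoli cell markers higher in KO (adjusted p = 0.0623 each, exact permutation tests), and their part in the X-linked values was not tested.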
